A study of Arabidopsis thaliana with 30 samples.

Results

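EAR-13-068 is a line of Arabidopsis thaliana whose shoot transcripts were compared with those of the EAR pool 13 background, to find the transcripts that set the line apart from its pool. The members are 6 of the 30 libraries of the series and were chosen by their titles, with replicates A, B and C on either side. Both groups have the genotype EAR in the labels, the tissue is shoot, the material was kept in RNA Later, and total RNA was made into standard Illumina libraries. The other 8 groups have 3 libraries each. They are the lines EAR-15-025 and EAR-15-053 with the EAR pool 15 background (genotype EAR), the lines VP16-02-003 and VP16-05-014 with the VP16 pool 2 and VP16 pool 5 backgrounds (genotype VP16), and the accession Col-0. The sources used here do not give the age of the plants, the promoter of the transgene, the DNA bound by its factor, or what plants make up a pool. The labels do not tell whether A, B and C are separate plants. The p-values rest on the spread between replicates estimated over all 30 libraries, which may be technical.

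In genome interrogation, artificial transcription factors built from zinc fingers bind short DNA sequences that occur at many places of the genome, and an attached domain raises or lowers transcription there. EAR is the name of a repression motif of plant transcription factors and VP16 that of a viral activation domain. A zinc-finger factor with a repression motif can act directly on the genes it binds, and every gene that responds to those genes can change after it, so that a direct and an indirect target look alike in RNA from whole shoots.

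The line had 28815395, 29209767 and 18884240 reads on genes in A, B and C, and the pool had 37499684, 37076564 and 29262808. Levels are given in CPM, reads on a gene relative to the library's total, scaled with edgeR's TMM factors. Reads on no gene made up 0.790 to 0.988% of a library and plastid genes 0.0840 to 0.172%. RBCS1A, the small subunit of Rubisco that marks green tissue, stood at 17600 to 22620 CPM in the 6 libraries. The 13 root markers summed to 2.42 to 3.04 CPM in the line and 2.08 to 2.56 in the pool, with 4 of them (EXPA7, EXPA18, RSL4 and RHD6) at 0 reads in all 6. The 10 flower markers summed to 1.92, 2.07 and 2.92 CPM in the line and 1.62, 1.19 and 0.833 in the pool, and the 8 seed storage markers to at most 0.999 CPM. The part of these cell types in the results was not tested. The libraries of each group were spread. The first component of the 6 libraries, with 51.2% of the variance, was at -2.50, 18.3 and 43.9 in A, B and C of the line and at -12.4, -14.6 and -32.6 in those of the pool. Counts of A and C of the line had a chi-square of 16.6 for each degree of freedom, those of B and C 9.07 and those of A and B 5.68, and in the pool the 3 pairs had 12.6, 8.02 and 10.2. Replicate C of the line was farthest from the others of its group on the first component, and C of the pool from those of its own.

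Of 19566 genes tested with edgeR's quasi-likelihood test, 46 passed a Benjamini-Hochberg adjusted p under 0.05, which is 0.235% of them, 23 higher (0.118%) and 23 lower (0.118%) in the line. Only such genes are said to have risen or fallen. Unadjusted p-values under 0.05 were found for 2152 genes (11.0%), 1065 of them higher (5.44%) and 1087 lower (5.56%). The median log2 fold change of all tested genes was -0.01. All 46 had line and pool libraries that did not overlap, as had 12.7% of all tested genes with the line above and 10.9% with the line below. At least a 2-fold change was seen in 7 of the risen and 14 of the fallen genes. The pool was above all 24 libraries of the other 8 groups for none of the 46 (0.0818% of all tested genes) and below them for 1. In 13 of the 46 the mean of one group or both was under 1 CPM. The count changed when a single library was left out, and such a fit also has fewer libraries to test with. Without replicate B of the line 4 genes were called, without A of the pool 6, without C of the line 13, without C of the pool 15, without B of the pool 19 and without A of the line 40. AT2G05914, UPM1, GH9B13 and TCP1 were called in all 6 of these fits, 13 genes in none of them and 18 in 1. Without C of the line, A of EAR-15-025, C of EAR-15-053 and C of VP16-05-014, 295 genes were called, 182 higher and 113 lower, and 45 of the 46 were among them. This set of 4 was picked after the data were seen. With library size as the only scaling 54 genes were called, 11 higher and 43 lower, and the log2 fold changes of the 46 shifted by a median of -0.07. Chromosomes 1 to 5 held 14, 12, 9, 2 and 9 of the called genes, of 5162, 2922, 3880, 2954 and 4524 tested on them.

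**Figure D1:**
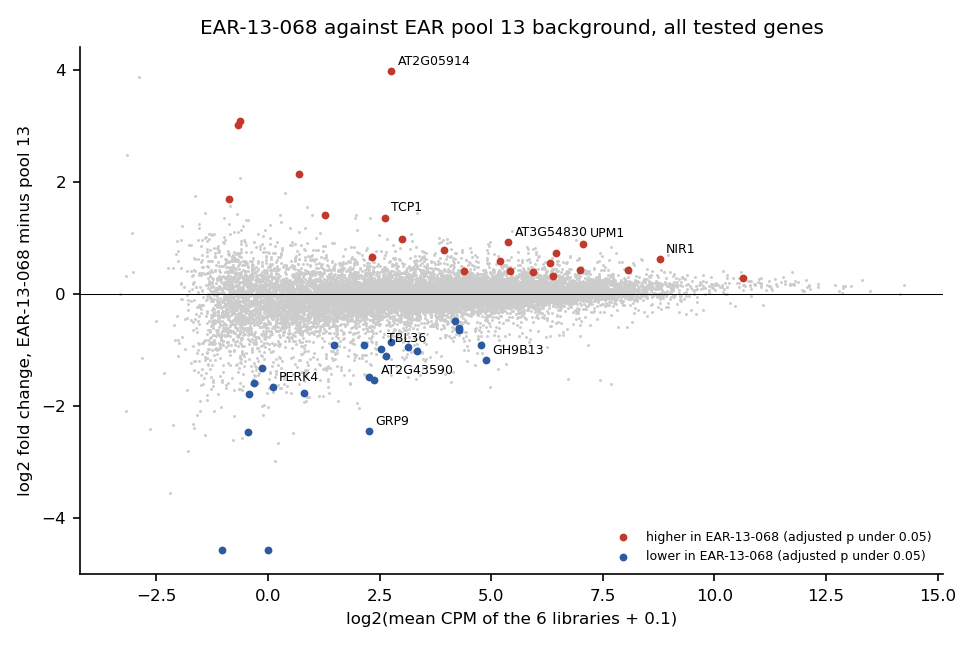
Log2 fold change of EAR-13-068 minus EAR pool 13 background (vertical axis) against the log2 of the mean CPM of the 6 libraries plus 0.1 (horizontal axis) for the 19566 tested genes. The 23 higher called genes are red, the 23 lower ones blue; AT2G05914 lies highest among the called genes at 3.98, and the 5 called genes with a mean over 100 CPM are all red.

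The largest rise was that of AT2G05914, a noncoding RNA gene on the minus strand of chromosome 2, chr2:2263124-2264543 in RefSeq's TAIR10.1. It stood at 12.5, 13.2 and 12.0 CPM in the line and at 0.461, 1.16 and 0.766 CPM in the pool, 951 reads against 84. The line libraries lay close together and far above each pool library. The rise was 15.8-fold, 3.98 on the log2 scale (SE 0.36, edgeR quasi-likelihood adjusted p = 1.35e-06), and the adjusted p stayed at 6.95e-06 to 7.67e-05 with a library left out. Among the other 8 groups the mean was highest in VP16-05-014, at 5.50 ± 0.329 CPM, and the next was Col-0 with 1.54 ± 0.468 (SD, n = 3 each). The line was above all 24 libraries of those groups, as it was for 0.526% of the tested genes. In bulk shoots, more or fewer cells that make a transcript and more or less of it per cell cannot be told apart.

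The gene overlaps AT2G05915 on the other strand. That gene, at chr2:2263816-2264265, lies wholly within AT2G05914 and had 0 reads in all 6 libraries. Whether the counting used strand is not given in the sources used here. Without strand, reads on both genes could have been set aside as ambiguous. The 0 therefore does not tell whether AT2G05915 was transcribed. Of the other neighbours, AT2G05910 stood at 0.322 ± 0.105 CPM in the line and 0.485 ± 0.0693 in the pool, and AT2G05920 at 101 ± 4.13 against 102 ± 5.68 CPM (SD, n = 3 each). AT2G05930 had 7 reads in the line and 4 in the pool, SDG11 0 and 1, and AT2G05890 none in either. AT2G05910 and AT2G05920, which had enough reads to be tested, had adjusted p of 0.519 and 0.984, and the others were not tested. The start region is shown because this gene had the largest rise among the called genes. It runs from 250 bases before the annotated start to 50 bases from it on, chr2:2264494-2264793 on the minus strand of TAIR10.1, read 5′ to 3′, with the 50 bases from the start on in capitals.
AT2G05914: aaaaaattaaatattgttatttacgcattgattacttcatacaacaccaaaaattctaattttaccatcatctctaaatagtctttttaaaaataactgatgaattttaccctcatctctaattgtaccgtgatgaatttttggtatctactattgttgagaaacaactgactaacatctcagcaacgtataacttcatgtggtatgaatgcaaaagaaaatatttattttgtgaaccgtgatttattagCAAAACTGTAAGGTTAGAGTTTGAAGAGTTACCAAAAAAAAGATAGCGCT

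**Figure D2:**
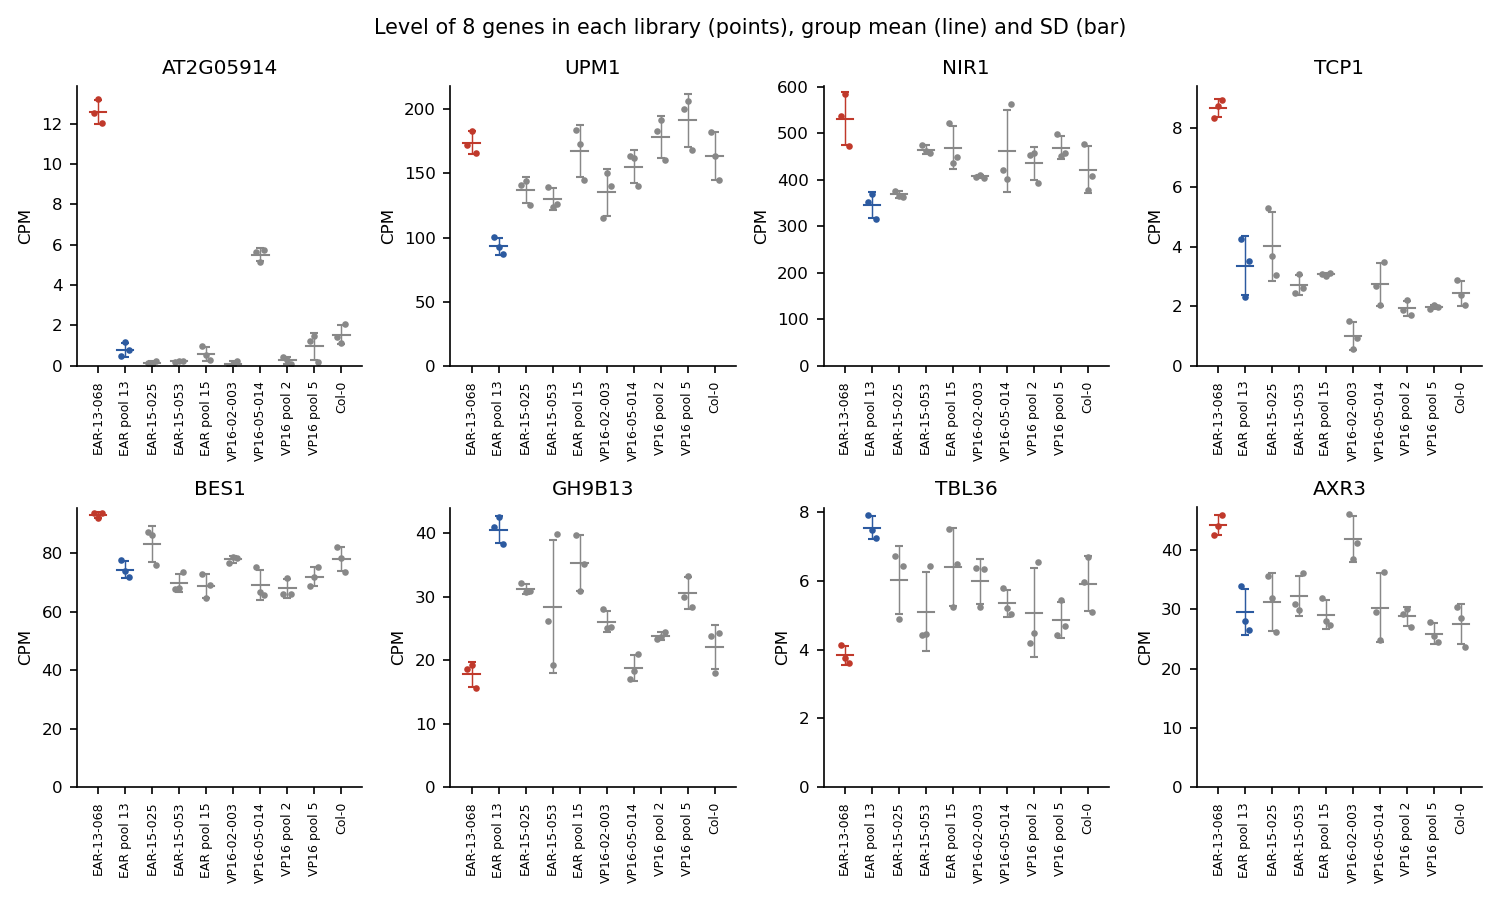
CPM of 8 genes (vertical axes, linear from 0) in the 3 libraries of each of the 10 groups (points), with the group mean (line) and SD (bar). EAR-13-068 is red and the EAR pool 13 background blue; AT2G05914 and TCP1 stand above all other groups in the line, whereas for UPM1 the pool stands below all others.

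Plants take up nitrate, reduce it to nitrite with nitrate reductase and to ammonium with nitrite reductase, and bind the ammonium in glutamine. Nitrite reductase and sulfite reductase both need siroheme, which is made from a tetrapyrrole through uroporphyrinogen methylation. UPM1, the uroporphyrinogen methyltransferase of siroheme synthesis, stood at 172, 184 and 166 CPM in the line and at 100.1, 92.3 and 87.1 CPM in the pool. The rise was 1.87-fold, 0.90 on the log2 scale (SE 0.11, edgeR quasi-likelihood adjusted p = 0.000213), with adjusted p of 0.000769 to 0.00443 with a library left out. The pool, not the line, was outside the range of the other groups. All 3 pool libraries were below all 24 libraries of those groups, as for 0.0562% of the tested genes, and the line was within their range of 115 to 206 CPM. Col-0 had 183, 164 and 145 CPM. UPM1, at chr5:16365900-16369316 on the plus strand, overlaps AT5G40855 on the other strand, which had 1 read in the line and 2 in the pool.

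NIR1, the nitrite reductase, stood at 537, 585 and 473 CPM in the line and at 352, 369 and 316 CPM in the pool. It rose 1.54-fold, 0.62 on the log2 scale (SE 0.11, edgeR quasi-likelihood adjusted p = 0.0108). The lowest line library was above the highest pool library. The call was lost without B of the line (adjusted p 0.136), without A of the pool (0.0649) and without C of the pool (0.0975). The means of the other 8 groups ran from 368 to 469 CPM, with Col-0 at 422 ± 51.0 (SD, n = 3), so the line was above and the pool below all of these means.

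Of 27 genes of nitrate assimilation and siroheme, all tested, UPM1 and NIR1 were called higher (0.118% of all tested genes were) and 0 were called lower. At an unadjusted p under 0.05, 13 were higher (5.44% of all tested genes were) and 0 lower, and in 17 all line libraries were above all pool libraries (12.7% of all tested genes). The median log2 fold change was 0.29. This list, like the others, was drawn up with earlier results of these data known, so such shares describe the list and are no test of it. The list summed to 10540.0, 10840.0 and 10600.0 CPM in the line, 8871, 9367 and 8589 in the pool and 9523, 8444 and 9150.0 in Col-0. SIR, the sulfite reductase that holds siroheme, was at 521, 524 and 486 CPM in the line and at 412, 385 and 344 CPM in the pool, a log2 difference of 0.42 (SE 0.10, adjusted p = 0.0881). The nitrate reductase NIA2 had 1528, 1448 and 1174 CPM against 1064, 1152 and 1043 (log2 difference 0.35, SE 0.12, adjusted p = 0.266), and NIA1 239, 227 and 211 against 149, 180.5 and 176 (0.42, SE 0.23, adjusted p = 0.522). SIRB, the ferrochelatase of the last siroheme step, differed by 0.12 (SE 0.08, adjusted p = 0.672). The uptake transporter NRT2:1 lay at 0.978 ± 0.0897 CPM in the line and 1.32 ± 0.349 in the pool (SD, n = 3 each; adjusted p = 0.692). LBD37, LBD38 and LBD39, factors that repress nitrate-response genes, differed by 0.41, 0.38 and 0.33, with adjusted p of 0.288, 0.446 and 0.286.

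AT3G54830, of a family of transmembrane amino acid transporters, had 54.7, 58.7 and 50.2 CPM in the line and 26.5, 32.2 and 27.8 CPM in the pool. It rose 1.89-fold, 0.92 on the log2 scale (SE 0.14, edgeR quasi-likelihood adjusted p = 0.00368). Each line library was well above each pool library. The other 8 groups had means of 32.6 to 44.1 CPM, between pool and line, and Col-0 had 44.0 ± 8.79 (SD, n = 3). The adjusted p was 0.0587 without B of the line and 0.0628 without A of the pool.

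**Figure D3:**
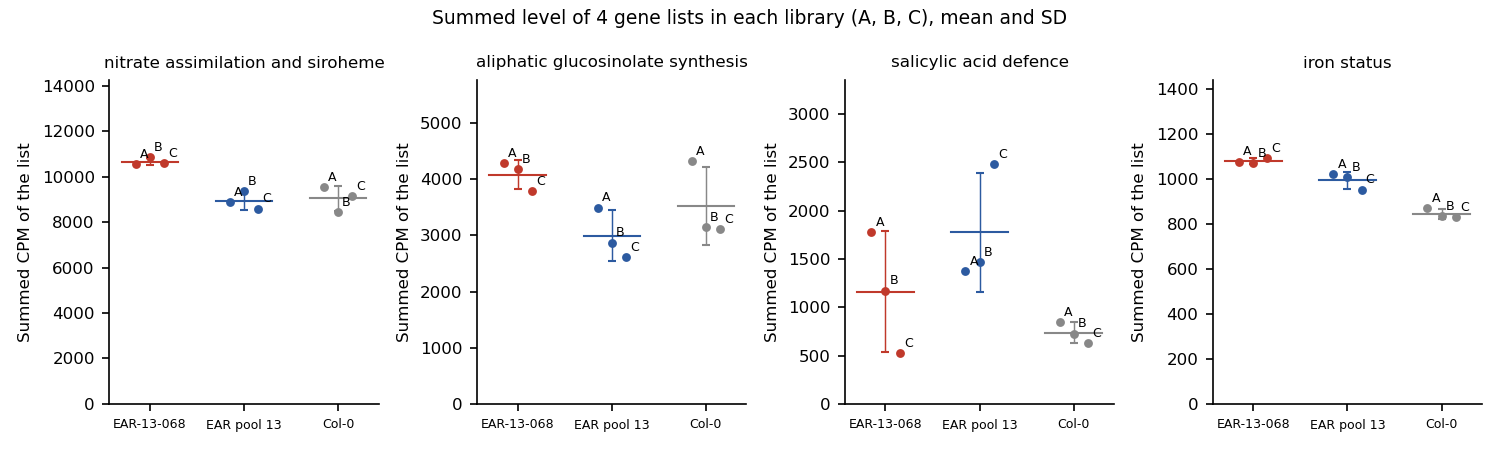
Summed CPM (vertical axes from 0) of 4 gene lists in the 3 libraries each of EAR-13-068, EAR pool 13 background and Col-0, with mean (line) and SD (bar). The nitrate list is at 10540 to 10840 CPM in the line and 8589 to 9367 in the pool; the salicylic acid list spans 528.9 to 1781 CPM within the line.

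BHLH100 and bHLH38 belong to a small group of basic helix-loop-helix factors that plants make when they lack iron and that switch on iron uptake genes in the root. Both were scarce. BHLH100 had 12, 20 and 31 reads in the line and 5, 0 and 6 in the pool, 0.418, 0.701 and 1.74 CPM against 0.128, 0 and 0.200. It rose by 3.02 on the log2 scale (SE 0.58, edgeR quasi-likelihood adjusted p = 0.0369). For bHLH38 there were 16, 16 and 33 reads in the line and 6, 4 and 1 in the pool, 0.557, 0.561 and 1.86 CPM against 0.154, 0.108 and 0.0333 (log2 fold change 3.09, SE 0.60, adjusted p = 0.0369). In each, replicate C of the line was highest and no line library reached down to the pool. The other groups had means of 0.0753 to 0.862 CPM for BHLH100 and 0.102 to 0.499 for bHLH38. Without C of the line the log2 fold changes were 2.37 and 2.38, with adjusted p of 0.148 and 0.153. That of BHLH100 was 3.65 without C of the pool and 2.44 without B of the pool. Over the 6 fits without a library the adjusted p was 0.00940 to 0.148 for BHLH100 and 0.0205 to 0.162 for bHLH38. bHLH38 overlaps PIP5K4 on the other strand, which was at 3.67 ± 0.560 CPM in the line and 3.94 ± 0.232 in the pool (SD, n = 3 each).

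Of 26 genes of iron status, 23 passed the filter on low counts. BHLH100 and bHLH38 were called, both higher (0.118% of all tested genes were). At an unadjusted p under 0.05, 7 were higher and 1 lower (5.44% and 5.56% of all tested genes). The list's median log2 fold change was 0.20. BHLH101, another member of the group, had a log2 difference of 1.75 (SE 0.58, adjusted p = 0.244). bHLH39 lies beside bHLH38 and did not pass the filter, with 3, 6 and 17 reads in the line and 2, 1 and 5 in the pool. AT1G47395 and AT2G30766, which code for short peptides that signal a lack of iron, differed by 1.19 and 1.41 (SE 0.39 and 0.46, adjusted p = 0.237 and 0.229). PYE, a factor of the iron response, was at 5.26, 5.12 and 5.63 CPM against 4.25, 4.13 and 3.10 (log2 difference 0.47, adjusted p = 0.384). The ferritins FER3 and FER4, which store iron, were at 65.3 ± 1.40 and 52.7 ± 9.81 CPM in the line and at 72.7 ± 3.80 and 65.0 ± 1.44 in the pool (SD, n = 3 each), with adjusted p of 0.586 and 0.312. The root uptake transporter IRT1 had 0, 0 and 2 reads in the line and 0, 0 and 1 in the pool.

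The promoters of both factors are shown because both hold a G-box, CACGTG, at a like distance from the start. Each window runs from 250 bases before the annotated start to 50 from it on, on the minus strand of TAIR10.1, chr2:17199405-17199704 for BHLH100 and chr3:21085196-21085495 for bHLH38, read 5′ to 3′. Capitals mark motifs found on either strand. They are CACGTG, 91 bases before the start in BHLH100 and 97 before it in bHLH38, and in BHLH100 also TTGACC on the other strand, 144 before, and CGTGTG, 4 before.
BHLH100: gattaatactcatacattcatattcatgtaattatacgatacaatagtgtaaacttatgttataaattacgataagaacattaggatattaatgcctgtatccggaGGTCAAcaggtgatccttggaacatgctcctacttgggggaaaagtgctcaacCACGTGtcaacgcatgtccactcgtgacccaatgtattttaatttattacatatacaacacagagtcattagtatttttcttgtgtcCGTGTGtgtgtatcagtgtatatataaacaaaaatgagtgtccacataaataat
bHLH38: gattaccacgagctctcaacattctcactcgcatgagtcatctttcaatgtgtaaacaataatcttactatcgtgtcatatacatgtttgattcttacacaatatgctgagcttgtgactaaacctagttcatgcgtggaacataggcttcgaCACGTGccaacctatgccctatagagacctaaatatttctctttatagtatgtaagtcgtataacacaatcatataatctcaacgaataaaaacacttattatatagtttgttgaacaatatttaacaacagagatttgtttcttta

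Brassinosteroids are steroid hormones of plant growth. They bind the receptor BRI1 and its relatives at the cell surface, and the signal ends in the transcription factors BES1 and BZR1, which switch growth genes on and genes of hormone synthesis off. TCP1, a TCP family factor known in Arabidopsis to raise the synthesis gene DWF4, was at 8.32, 8.72 and 8.95 CPM in the line and at 4.25, 2.30 and 3.53 CPM in the pool. It rose 2.57-fold, 1.36 on the log2 scale (SE 0.21, edgeR quasi-likelihood adjusted p = 0.00280), and was called in all fits without a library (adjusted p 0.00295 to 0.0292). All 3 line libraries were above all 24 libraries of the other groups, whose highest was 5.28 CPM, and Col-0 was at 2.87, 2.37 and 2.05 CPM. DWF4 itself had 11.9, 14.6 and 13.6 CPM in the line and 11.4, 13.4 and 13.0 in the pool, a log2 difference of 0.09 (SE 0.12, adjusted p = 0.861).

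BES1 was at 93.6, 91.9 and 93.7 CPM in the line and at 77.7, 73.7 and 71.7 CPM in the pool, a small rise of 1.25-fold (log2 0.32, SE 0.07, edgeR quasi-likelihood adjusted p = 0.0423). The line was above all 24 libraries of the other groups here as well, whose highest had 87.1 CPM. The call held in none of the fits without a library (adjusted p 0.0758 to 0.257) and not with library size as the only scaling (0.133). BES1 overlaps AT1G19360 on the other strand. The receptor gene BRL3 fell by 0.95 log2 units (SE 0.20, adjusted p = 0.0442), from 9.41, 9.62 and 15.7 CPM in the pool to 7.46, 5.15 and 5.23 in the line, and replicate C of the pool was the highest library. Its adjusted p was 0.294 without that library, 0.315 without B of the line, 0.162 without C of the line and 0.0649 without A of the pool. Col-0 had 5.59 ± 0.370 CPM of BRL3 (SD, n = 3), and the gene overlaps AT3G13390 on the other strand.

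Of 30 genes of brassinosteroid synthesis and signalling, 28 were tested. TCP1 and BES1 were called higher and BRL3 lower (0.118% of all tested genes each way). Of the list, 4 were higher and 3 lower at an unadjusted p under 0.05 (5.44% and 5.56% of all tested genes). The median log2 fold change was 0.06, and -0.01 with library size as the only scaling. The main receptor BRI1 differed by 0.07 (SE 0.16, adjusted p = 0.926), BZR1 by 0.15 (SE 0.09, adjusted p = 0.570) and the kinase BIN2, which holds BES1 in check, by 0.01 (SE 0.13, adjusted p = 0.993). BR6OX2, which makes the active hormone in a last step, was at 15.9, 17.5 and 15.5 CPM in the line and 23.2, 20.9 and 34.2 in the pool (log2 difference -0.67, SE 0.20, adjusted p = 0.189). The receptor BRL1 was at 1.99 ± 0.183 CPM in the line and 2.87 ± 0.0227 in the pool (SD, n = 3 each), with an adjusted p of 0.253.

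The promoter of BES1 is shown because it alone among the windows of the called genes holds GGNCCCAC, a site of TCP factors. The motif was in 2.27% of those windows and in 1.34% of all windows. Whether TCP1 binds this motif was not tested, and no other TCP site was searched for. The window is chr1:6688213-6688512 on the plus strand of TAIR10.1, 250 bases before the start and 50 from it on, read 5′ to 3′, with the fixed letters of the motif in capitals, at 26 and at 7 bases before the start.
BES1: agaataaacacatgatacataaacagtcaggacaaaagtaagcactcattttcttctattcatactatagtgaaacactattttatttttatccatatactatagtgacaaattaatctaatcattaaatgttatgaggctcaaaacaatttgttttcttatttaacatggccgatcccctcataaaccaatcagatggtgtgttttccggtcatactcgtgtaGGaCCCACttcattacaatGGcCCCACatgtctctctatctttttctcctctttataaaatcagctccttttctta

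For 44 of the 46 called genes a window of a protein-coding gene could be read, out of 26711 in the reference. The 26711 include genes that did not pass the filter on low counts, whereas every called gene passed it. The motifs were searched as plain letters on both strands, and CACGTG, being its own reverse, counts once. CACGTG was in 7 of the 44 (15.9%) and in 7.79% of all windows. CGTGTG and CGTGCG, forms of the element bound by BES1 and BZR1, were in 6 (13.6%) and 1 (2.27%), against 6.51% and 1.97%. The W-box forms TTGACC and TTGACT were in 6 (13.6%) and 9 (20.5%), against 14.1% and 21.9%. GGNCCCAC was in 1 (2.27%) against 1.34%, GCCGCC in none against 2.55%. The core of the nitrate-responsive element was in none of the 44 and in 0.0262% of all windows. A match is a stretch of letters and not a site known to be bound.

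Expanding plant cells loosen their walls with expansins, xyloglucan endotransglucosylases and endoglucanases of glycosyl hydrolase family 9. GH9B13, of that family, fell from 41.0, 42.5 and 38.3 CPM in the pool to 18.6, 19.2 and 15.6 CPM in the line. It fell by 1.18 on the log2 scale, 2.27-fold (SE 0.16, edgeR quasi-likelihood adjusted p = 0.000894), and was called in all 6 fits without a library (adjusted p 0.00443 to 0.0131). The means of the other 8 groups, 18.8 to 35.3 CPM, lay between line and pool. GH9B13 is at chr4:1002338-1005305 on the minus strand. Its neighbours SUS3 and RSH1 had log2 differences of -0.00 (SE 0.23) and 0.22 (SE 0.12), with adjusted p of at least 0.541.

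GH9B1, another endoglucanase of the family, fell by 0.61 (SE 0.12, edgeR quasi-likelihood adjusted p = 0.0379), from 25.0, 23.2 and 21.8 CPM to 16.7, 14.9 and 14.1. XTH8, a xyloglucan endotransglucosylase, went the other way, with 18.6, 20.0 and 19.1 CPM in the line against 11.2, 11.4 and 11.0 in the pool, a rise of 0.78 (SE 0.16, adjusted p = 0.0442). Of the 29 wall loosening genes tested, 1 was called higher and 2 lower (0.118% of all tested genes each way). At an unadjusted p under 0.05, 4 each were higher and lower (5.44% and 5.56% of all tested genes). The list's median log2 fold change was 0.04. This median was -0.03 with library size as the only scaling, -0.05 without C of the line and -0.03 without C of the pool. The expansins EXPA8, EXPA5 and EXPA16 differed by 0.59, 0.43 and -0.70, with adjusted p of 0.305, 0.455 and 0.554.

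Among 10 genes of cellulose, extensins and wall acetylation, 3 were called (0.235% of all tested genes were). At an unadjusted p under 0.05, 3 were higher and 3 lower (5.44% and 5.56% of all tested genes). TBL36, of a family of wall polysaccharide acetyltransferases, fell by 0.97 (SE 0.17, edgeR quasi-likelihood adjusted p = 0.0108), from 7.92, 7.48 and 7.26 CPM to 4.14, 3.75 and 3.60, below all 24 libraries of the other groups as for 0.194% of the tested genes. Its relative TBL45 rose by 0.42 (SE 0.09, adjusted p = 0.0423), from 34.2, 39.7 and 35.7 to 44.7, 48.2 and 53.5 CPM. EXT4, an extensin, which is a structural wall protein, fell by 0.92 (SE 0.20, adjusted p = 0.0481), from 41.3, 29.7 and 35.6 to 23.8, 13.9 and 18.8 CPM. EXT3 had 38.8, 17.0 and 15.9 CPM in the line and 52.4, 51.9 and 66.5 in the pool (adjusted p = 0.165). The cellulose synthases CESA1, CEV1 and CESA6 differed by 0.13, 0.12 and 0.38, with adjusted p of 0.755, 0.744 and 0.365. Without B of the line the adjusted p was 0.129 for TBL36, 0.211 for TBL45, 0.272 for GH9B1, 0.272 for XTH8 and 0.385 for EXT4. Without C of the line it was 0.0797, 0.165, 0.161, 0.123 and 0.158, and without A of the pool 0.0649, 0.159, 0.125, 0.125 and 0.182.

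AXR3 is an Aux/IAA protein, a repressor of auxin response that is degraded when auxin is present. It was at 42.6, 44.1 and 45.9 CPM in the line and at 33.9, 28.0 and 26.5 CPM in the pool, a rise of 0.58 on the log2 scale (SE 0.13, edgeR quasi-likelihood adjusted p = 0.0466). The call held in none of the fits without a library (adjusted p 0.0649 to 0.281). VP16-02-003 had 41.9 ± 3.86 CPM (SD, n = 3). Of 22 Aux/IAA genes tested AXR3 alone was called (0.118% of all tested genes were called higher). In the list 2 were higher and 0 lower at an unadjusted p under 0.05 (5.44% and 5.56% of all tested genes). The list's median was 0.03, and -0.04 with library size as the only scaling. IAA1 differed by 0.34 (adjusted p = 0.244).

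None of the 20 organ growth regulators tested was called by edgeR's quasi-likelihood test. At an unadjusted p under 0.05, 1 was lower and 0 higher (5.56% and 5.44% of all tested genes). The list's median log2 difference was -0.02. The growth-regulating factors GRF1, GRF2, GRF3 and GRF5 differed by -0.15, -0.16, -0.36 and -0.22, with adjusted p of 0.682, 0.537, 0.573 and 0.574. AN3, a co-activator that works with them, was at 14.0, 10.5 and 12.7 CPM in the line and at 15.1, 17.1 and 17.7 CPM in the pool (log2 difference -0.42, SE 0.13, adjusted p = 0.191). Of the 23 genes of the cell cycle and DNA replication none was called by this test. Here 3 were lower and 0 higher at an unadjusted p under 0.05 (5.56% and 5.44% of all tested genes). In this list 19 were below 0, with a median of -0.10. That median was -0.21 without C of the line and -0.06 without B. The cyclins CYCA1;1, CYCB1;1, CYC1BAT and CYCD2;1 differed by -0.08, -0.19, -0.16 and 0.08, and CYCD3;1 by -0.30 (SE 0.09, adjusted p = 0.205).

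**Figure D4:**
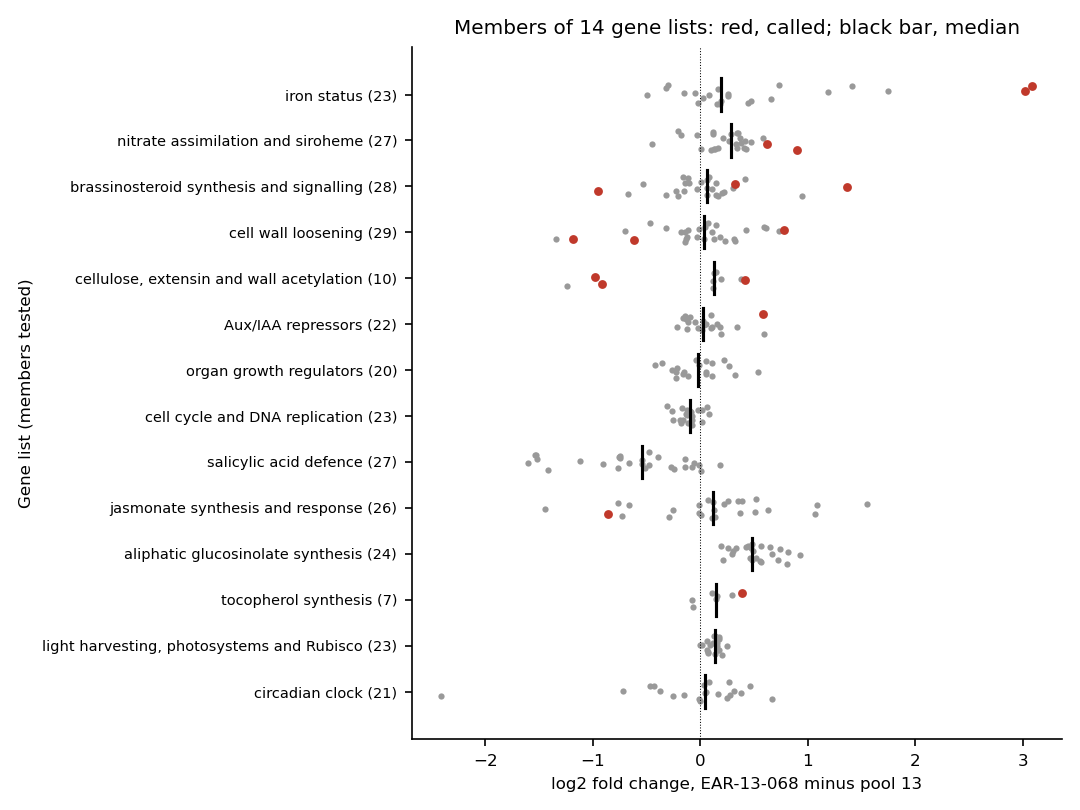
Log2 fold changes of EAR-13-068 minus EAR pool 13 background (horizontal axis) for each tested member of 14 gene lists (rows, with the number tested), called members in red and the median as a black bar. All 24 aliphatic glucosinolate genes lie above 0 with a median of 0.49 and no called member; the called iron genes BHLH100 and bHLH38 lie at 3.02 and 3.09.

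Aliphatic glucosinolates are sulfur-rich defence compounds of the cabbage family, made from methionine by chain elongation, core synthesis and side-chain change under the factors MYB28, MYB29 and MYB76. Of 26 genes listed 25 were measured and 24 tested. None was called by edgeR's quasi-likelihood test, and 7 were higher (5.44% of all tested genes were) and 0 lower at an unadjusted p under 0.05. All 24 tested had log2 differences above 0, from 0.20 to 0.93, with a median of 0.49. In 17 of them all line libraries were above all pool libraries (12.7% of all tested genes). The measured genes summed to 4279, 4179 and 3781 CPM in the line, to 3492, 2872 and 2609 in the pool and to 4320.0, 3143 and 3109 in Col-0, so the line was within the range of Col-0. MYB28 had 68.3, 62.3 and 53.2 CPM in the line and 60.0, 50.5 and 43.5 in the pool (log2 difference 0.26, SE 0.29, adjusted p = 0.823). MYB29 had 58.5, 51.7 and 38.5 CPM against 46.6, 32.7 and 27.2 (log2 difference 0.48, SE 0.41, adjusted p = 0.740). FMO GS-OX1, which oxidises the side chain, had 42.3, 41.4 and 38.7 CPM against 26.7, 20.9 and 16.8 (log2 difference 0.93, SE 0.43, adjusted p = 0.436). The median was 0.40 without C of the pool and 0.70 without A of the pool, the extremes of the 6 fits without a library.

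Salicylic acid carries defence against pathogens that feed on living cells, with PR1, BGL2 (PR2) and PR5 as its marker genes and EDS16, the isochorismate synthase ICS1, as its main source. None of the 27 genes was called by edgeR's quasi-likelihood test, 12 were lower (5.56% of all tested genes were) and 0 higher at an unadjusted p under 0.05, 25 were below 0 and the median log2 difference was -0.54. In 4 of them all line libraries were below all pool libraries, near the share of 10.9% among all tested genes. The sum was 1781, 1172 and 529 CPM in A, B and C of the line, 1374, 1470.0 and 2481 in the pool and 850.1, 727 and 632 in Col-0. Replicate C was lowest in the line and highest in the pool, and line A was above pool A. The median was -0.30 without C of the line, -0.28 without C of the pool and -0.91 without A of the line. PR1 was at 217, 60.6 and 28.5 CPM in the line and at 280.5, 238 and 413 CPM in the pool (log2 difference -1.60, SE 0.59, adjusted p = 0.288). BGL2 was at 178, 72.2 and 14.8 CPM against 147, 157 and 469.6 (log2 difference -1.54, adjusted p = 0.393). PR5 was at 94.5, 48.4 and 19.1 CPM against 68.6, 98.5 and 300.2 (log2 difference -1.52, adjusted p = 0.330). For PR5 and BGL2 the groups overlapped. EDS16, at 35.8, 30.1 and 22.4 CPM against 41.4, 41.5 and 65.6, had a log2 difference of -0.74 (SE 0.22, adjusted p = 0.167).

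Jasmonate signals wounding, and JMT turns jasmonic acid into its methyl ester. JMT fell by 0.86 on the log2 scale (SE 0.18, edgeR quasi-likelihood adjusted p = 0.0423), from 10.8, 7.83 and 6.89 CPM in the pool to 3.94, 5.05 and 5.18 in the line. Among the fits without a library the call held without C of the pool and in no other (adjusted p 0.0391 to 0.237). Of 26 jasmonate genes tested JMT alone was called (0.118% of all tested genes were called lower). In the list 5 were higher and 2 lower at an unadjusted p under 0.05 (5.44% and 5.56% of all tested genes). The list's median was 0.12, and 0.04 without C of the pool. ORA59, which joins jasmonate and ethylene signals, had 2.95 ± 0.714 CPM in the line and 1.37 ± 0.171 in the pool (SD, n = 3 each; log2 difference 1.09, SE 0.28, adjusted p = 0.105). DOX1, which oxidises fatty acids in defence, fell from 25, 36 and 20 reads in the pool to 2, 0 and 0 in the line. The ratio of its summed reads to the summed library sizes, line to pool, was 0.0333, with an exact 95% interval of 0.00397 to 0.124 that covers counting error only, and its adjusted p was 0.0369. Over the fits without a library this was 0.0509 to 0.272. The mean of DOX1 was 0.0232 CPM in the line and 0.760 in the pool. In the other 8 groups its means were 0.126 to 0.688 CPM, below that of the pool and above that of the line. The chitinase family gene AT2G43590 fell by 1.54 (SE 0.23, adjusted p = 0.00280), from 6.87, 8.32 and 7.56 CPM to 2.58, 1.96 and 3.43, with an adjusted p of 0.0679 without B of the line.

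VTE1, the tocopherol cyclase that closes the ring of vitamin E in the chloroplast, was at 64.1, 69.6 and 72.7 CPM in the line and at 55.4, 51.6 and 50.8 in the pool, a rise of 0.39 (SE 0.08, edgeR quasi-likelihood adjusted p = 0.0423). The call was kept without A of the line and lost in the other 5 fits without a library, with adjusted p of up to 0.272. VTE1 was the only called gene of 7 for tocopherol synthesis (0.118% of all tested genes were called higher). Of the 7, 3 were higher and 0 lower at an unadjusted p under 0.05 (5.44% and 5.56% of all tested genes). The list's median was 0.15. G-TMT, the methyltransferase of the last step, differed by 0.30 (SE 0.13, adjusted p = 0.395). PRK, the phosphoribulokinase of the Calvin cycle, had 1620.0, 1781 and 1829 CPM in the line and 1422, 1507 and 1360.0 in the pool (log2 fold change 0.29, SE 0.06, adjusted p = 0.0459). Without a library its adjusted p was 0.0294 to 0.347, and the gene overlaps AT1G32070 on the other strand.

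None of the 23 genes of light harvesting, photosystems and Rubisco was called by edgeR's quasi-likelihood test. At an unadjusted p under 0.05, 1 was higher and 0 lower (5.44% and 5.56% of all tested genes). Of the 23, 22 were above 0, and the median was 0.14, against -0.01 for all tested genes. The antenna genes LHCA1, LHCA2, LHCA3 and LHCA4 differed by 0.16, 0.15, 0.13 and 0.14. None of 21 clock genes was called by this test. Of these, 1 each was higher and lower at an unadjusted p under 0.05 (5.44% and 5.56% of all tested genes). The morning factors CCA1, LHY, RVE1 and LCL1 differed by 0.31, 0.27, 0.67 and 0.08, with adjusted p of 0.687, 0.743, 0.443 and 0.889. ELF3 of the evening complex was at 23.9, 27.3 and 30.5 CPM in the line and 31.3, 37.2 and 44.3 in the pool (log2 difference -0.47, SE 0.18, adjusted p = 0.316). The most negative member was COR27, a cold- and light-regulated gene, at -2.41 (SE 1.75, adjusted p = 0.678), from 1 read in the line and 10 in the pool. The list's median was 0.04, and -0.03 with library size as the only scaling.

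**Figure D5:**
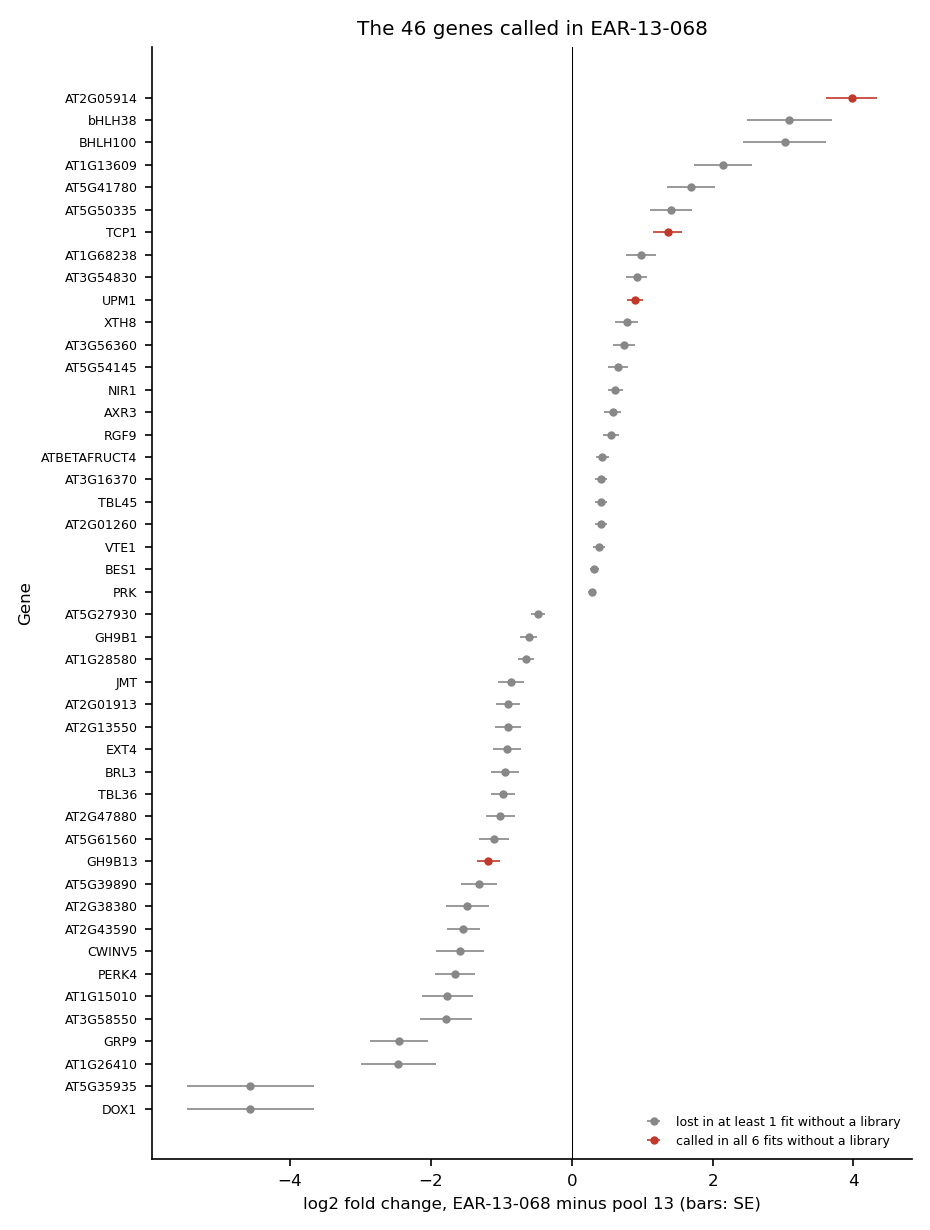
Log2 fold change with its SE (bars) for the 46 called genes, ordered by size (rows), EAR-13-068 minus EAR pool 13 background. Red marks AT2G05914, UPM1, GH9B13 and TCP1, called in all 6 fits without a library, and grey the other 42, which lost the call in at least 1 of them.

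Further risen genes belong to none of the lists. AT1G13609, a defensin-like gene, had 1.18, 1.96 and 4.33 CPM in the line and 0.641, 0.486 and 0.466 in the pool, a rise of 2.15 on the log2 scale (SE 0.41, edgeR quasi-likelihood adjusted p = 0.0352). It was highest in C of the line, and without that library its log2 fold change was 1.55 and its adjusted p 0.153. AT5G41780, annotated as myosin heavy chain-like, had 15, 23 and 13 reads in the line and 7, 11 and 4 in the pool (log2 fold change 1.70, SE 0.34, adjusted p = 0.0379). RGF9, annotated as a root meristem growth factor, was at 97.7, 98.0 and 88.8 CPM in the line and 65.2, 61.1 and 67.1 in the pool (log2 fold change 0.56, SE 0.12, adjusted p = 0.0423). Col-0 had 97.3 ± 13.3 CPM of it (SD, n = 3). AT3G16370, a lipase-like gene of the GDSL family that overlaps AT3G16380, had 294, 313 and 316 CPM against 207, 244 and 237 (log2 fold change 0.42, SE 0.09, adjusted p = 0.0379). ATBETAFRUCT4, a vacuolar invertase that splits sucrose, had 148, 139.7 and 149 CPM against 118, 105 and 101 (log2 fold change 0.43, adjusted p = 0.0442), above the highest of the 24 other libraries, 134. The uncharacterized AT5G50335, AT1G68238, AT3G56360, AT5G54145 and AT2G01260 rose 2.67-fold, 1.98-fold, 1.67-fold, 1.57-fold and 1.33-fold, with adjusted p of 0.0442 each. The first 4 of these were called in none of the fits without a library and AT2G01260 in 1, with adjusted p of up to 0.193, 0.242, 0.236, 0.315 and 0.272. Over the fits without a library the adjusted p reached 0.257 for AT3G16370, 0.272 for RGF9, 0.283 for AT5G41780 and 0.264 for ATBETAFRUCT4.

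Further fallen genes included GRP9, a glycine-rich protein, which fell by 2.45 on the log2 scale (SE 0.41, edgeR quasi-likelihood adjusted p = 0.0107), from 9.41, 9.32 and 5.26 CPM to 1.74, 1.58 and 0.956. PERK4, a receptor kinase with an extensin-like part, fell by 1.66 (SE 0.28, adjusted p = 0.0108), from 1.67, 1.41 and 1.43 CPM to 0.522, 0.561 and 0.281. AT1G28580, of the GDSL lipase family, fell by 0.65 (SE 0.12, adjusted p = 0.0163), from 24.9, 21.8 and 24.4 CPM to 15.1, 15.0 and 15.3, below all 24 libraries of the other groups. In each of these the line and pool libraries were apart. The uncharacterized AT5G35935 had 1, 2 and 2 reads in the line and 102, 11 and 68 in the pool. Its ratio, line to pool, was 0.0373, with an exact 95% interval of 0.0120 to 0.0887 for counting error. Its adjusted p was 0.0369, and 0.00316 without B of the pool and 0.259 without B of the line. Over the fits without a library the adjusted p reached 0.0869 for GRP9, 0.0759 for PERK4 and 0.115 for AT1G28580.

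Of peroxidases and redox proteins, the peroxidase family gene AT2G38380 fell by 1.48 (SE 0.30, edgeR quasi-likelihood adjusted p = 0.0379), from 8.54, 6.08 and 6.36 CPM to 3.83, 2.07 and 1.41. The glutaredoxin family gene AT2G47880 fell by 1.01 (SE 0.20, adjusted p = 0.0379), from 14.7, 14.9 and 10.8 CPM to 6.13, 7.74 and 6.08. AT5G39890, annotated as an aminoethanethiol dioxygenase, fell by 1.32 (SE 0.26, adjusted p = 0.0379), from 1.41, 0.891 and 1.13 CPM to 0.453, 0.385 and 0.563. In none of the 3 did the groups overlap. AT5G61560, a kinase with a U-box, fell 2.14-fold (adjusted p = 0.0369), from 7.56, 9.02 and 8.49 CPM to 4.70, 3.57 and 3.32. The uncharacterized AT2G01913 had 1.81, 1.82 and 1.97 CPM in the line and 4.05, 3.32 and 3.06 in the pool, and AT2G13550 2.79, 2.52 and 3.77 against 6.15, 5.19 and 5.46. AT1G15010 had 0.801, 0.806 and 0.619 CPM against 2.49, 2.59 and 2.66, and AT3G58550, of the lipid-transfer family, 0.244, 0.210 and 0.450 against 1.08, 0.837 and 1.07. They fell by 0.90, 0.91, 1.77 and 1.78, with adjusted p of 0.0369, 0.0379, 0.0423 and 0.0423. The phosphatase family gene AT5G27930 fell by 0.48, the berberine family gene AT1G26410 by 2.46 and the cell wall invertase CWINV5 by 1.58, with adjusted p of 0.0442, 0.0472 and 0.0454. AT1G26410 had 12, 3 and 0 reads in the line and 47, 50 and 22 in the pool, and its log2 fold change was -3.99 without A of the line and -2.05 without C of the line. Each of the genes in this paragraph lost its call in at least 5 of the 6 fits without a library.

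An entry called VP16, no gene of the plant, was counted along with the loci. It had 10, 24 and 21 reads in the line and 181, 37 and 72 in the pool, 0.348, 0.841 and 1.18 CPM against 4.64, 0.999 and 2.40. The pool libraries differed among themselves by more than the line libraries did, and line C was above pool B. The log2 difference was -1.84 (SE 0.46, edgeR quasi-likelihood adjusted p = 0.0881). It was -1.15 without A of the pool and -2.24 without B of the pool, and the adjusted p was 0.0240 to 0.377 over the fits without a library. Both groups have the genotype EAR, and which sequence the entry counts is not given in the sources used here.

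To see whether a gene differed in this line otherwise than in other EAR lines, the change of EAR-13-068 from its pool was compared with the mean change of EAR-15-025 and EAR-15-053 from the EAR pool 15 background, which has no library in common with it. Of 19566 genes 6 differed by edgeR's quasi-likelihood test (0.0307%), and 759 (3.88%) at an unadjusted p under 0.05. Of the 46 called genes 4 were among the 6. For UPM1 the log2 changes differed by 1.23 (SE 0.14, adjusted p = 0.000202). EAR-15-025 and EAR-15-053 had 137 ± 10.2 and 130.0 ± 8.64 CPM of it and their pool 168 ± 20.1 (SD, n = 3 each), so their means were below that of their pool, whereas EAR-13-068 was above its own. For AT2G05914 the difference was 5.70 (SE 0.72, adjusted p = 0.000337), with 0.131 ± 0.0819, 0.222 ± 0.0274 and 0.582 ± 0.349 CPM in these 3 groups. For AT3G54830 it was 1.12 (SE 0.19, adjusted p = 0.0173), with 34.5 ± 0.642, 36.1 ± 3.70 and 40.5 ± 8.95 CPM. For NIR1 it was 0.80 (SE 0.14, adjusted p = 0.0232), with 368 ± 7.50, 465 ± 9.86 and 469 ± 46.0 CPM. None of the other 42 called genes passed this test. Without A of the line, B of the line or A of the pool, 3 genes differed in place of 6.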

How the data were processed

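Shoot RNA of 30 libraries in 10 groups was given by the authors as deposited read counts per locus, with TopHat2 2.0.5, HTSeq and TAIR10 named in the submitters' processing notes. What each tool did, the HTSeq version, the annotation and the use of strand are not given in the sources used here. A locus or VP16 is named by 32679 entries, and 5 that name none were left out of library sizes (0.790 to 0.988% of reads on no feature and 1.35 to 1.44% ambiguous in the 6 libraries). Groups came from the titles.

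All 30 libraries were fitted together with edgeR 4.0.16 in R 4.3.3 (TMM scaling, filterByExpr with a minimum count of 10, quasi-likelihood test, Benjamini-Hochberg adjustment, threshold 0.05). The SE is the log2 fold change divided by the square root of F. A further contrast set the line's change against that of the EAR-15 lines. On simulated counts of 19430 genes for this comparison, 64.2% of 1.5-fold, 88.1% of 2-fold and 90.9% of 4-fold changes were recovered, with 10 false calls. These counts were drawn for each gene on its own, with no shift shared by the genes of a library. The simulation therefore does not show what is recovered from libraries spread as these were. An exact permutation test of 3 against 3 libraries cannot go below 0.1, so none was used. Intervals cover counting error only.

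The rule named the 30 called genes of smallest adjusted p, the called members and otherwise the first 4 tested members of each of 17 lists, VP16 and the 3 nearest loci on each side of 5 genes. Other genes were named for their role after their values were seen. Members and lists were chosen with earlier results of these data known, and the nitrate-responsive motif was added afterwards. Symbols, positions and promoters came from RefSeq's TAIR10.1, in which 31912 entries matched. Alternatives were library size alone, RLE factors, no filter, DESeq2 1.42.0, replicate blocks, the 6 libraries alone, no organelle genes, each library left out, and 4 libraries left out. Figures used matplotlib 3.10.9 under Python 3.11.15.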

Additional observations from a re-analysis of the deposited data

Results flagged for a closer look

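The 6 entries that follow were marked because the change of EAR-13-068 from its pool differed from the mean change of EAR-15-025 and EAR-15-053 from theirs, by edgeR's quasi-likelihood test of that difference. For UPM1 the difference was 1.23 on the log2 scale, for AT2G05914 5.70, for AT3G54830 1.12 and for NIR1 0.80, with adjusted p of 0.000202, 0.000337, 0.0173 and 0.0232.

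AT3G22240 differed by 3.50 (adjusted p = 0.00124), and the low group was EAR-15-053. That line had 0.461 ± 0.0778 CPM, EAR-15-025 had 41.3 ± 9.77 and their pool 52.6 ± 12.9 (SD, n = 3 each). EAR-13-068 had 81.0, 59.2 and 27.1 CPM and its pool 46.4, 57.4 and 74.0, groups that overlap (adjusted p = 0.964).

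The VP16 entry differed by -3.38 (adjusted p = 0.0173). It stood at 0.790 ± 0.419 CPM in EAR-13-068 and 2.68 ± 1.84 in pool 13, and at 5.48 ± 0.867, 7.46 ± 1.51 and 2.21 ± 0.894 CPM in EAR-15-025, EAR-15-053 and pool 15 (SD, n = 3 each). In Col-0 it was at 0.0250, 0 and 0.105 CPM. The groups of genotype VP16 had the highest means of this entry. They were 8.924 CPM in VP16-02-003, 23.59 in VP16-05-014, 8.805 in VP16 pool 2 and 12.85 in VP16 pool 5. No cause of these differences was tested.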

How the results depend on the processing

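Against 46 genes called, DESeq2 called 155 (82 higher, 73 lower), the fit without 4 libraries (C of the line, A of EAR-15-025, C of EAR-15-053 and C of VP16-05-014), an alternative chosen after seeing the data, called 295 (182 and 113), and the 6 fits that left out a library called 4 to 40. The other settings called 32 to 54 genes, among them 54 with library size alone (11 higher, 43 lower), 32 without the filter, 50 with the 6 libraries alone and 46 without organelle genes. Of the 46, 34 were called with library size alone, 32 without the filter, 44 of 44 with a value by DESeq2, 17 of 45 with the 6 libraries alone, and none turned direction in any setting run. Whether the replicate letters pair the samples is not given in the labels. Over genes, the deviations of A, B and C of the line and the pool correlated at -0.08, -0.01 and -0.27. Those of unlike letters correlated at -0.25 to 0.27. The deviations of each group sum to 0, so these values cannot tell whether the letters mark a shared batch. With the replicate block 48 genes were called on all libraries, 39 of the 46 among them, and 52 (36 higher, 16 lower) on the 6 libraries alone, 12 of the 46 among them. For the difference from the EAR-15 lines, 6 genes were called, and 15 by DESeq2, 16 without the 4 libraries, 6 with the replicate block and 3 to 6 without a library; it was not run on the 6 libraries alone or without organelle genes. The causes were not tested. Depth limits genes of few reads: 13 of the 46 had a group mean under 1 CPM.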
